A study of Mus musculus with 60 samples.

Results

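The kidneys of cKOt mice collected at dusk were compared with those collected at dawn, 5 mice at ZT12 against 5 mice at ZT0, by RNA sequencing. These are 10 of the 60 kidneys of the series, chosen by genotype and time point alone. In cKOt mice (Bmal1lox/lox/Pax8-rtTA/LC-1 Cre, male, on a C57BL/6J background), doxycycline switches on a Cre recombinase that removes Bmal1 from the epithelium of the renal tubule. Control mice were littermates that carry Bmal1lox/lox without the transgenes. Both genotypes drank doxycycline at 2 mg/ml with sucrose at 20 mg/ml for 2 weeks from the age of 8 weeks, and kidneys were taken about a month later. Mice lived under 12 h of light and 12 h of darkness with free access to chow, so that ZT0 is lights on, at the end of the active night, and ZT12 is lights off, at the end of the resting day. The Pax8-rtTA transgene acts in tubule cells. Vessels, glomeruli, interstitial cells, and all other organs of cKOt mice are taken to keep their clock, which was not tested here. Although the tissue label reads renal tubule, the authors describe frozen kidney without isolation of tubules, and they chose the 5 mice of a group out of more that were sacrificed, by RNA quality and clustering. The sample list of the study gives 6 batches, each with mice of several groups, and does not say at which step they arose.

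The circadian clock of a cell is a feedback loop. BMAL1 pairs with CLOCK or NPAS2 and activates E-box genes, among them those of the PER and CRY repressors, the REV-ERB receptors (Nr1d1 and Nr1d2), and the output factors DBP, TEF, and HLF, while REV-ERB represses Bmal1 itself. Cells that lack BMAL1 still receive daily signals from the rest of the body, such as feeding, body temperature, and glucocorticoid hormones, which peak around lights off in mice. The comparison therefore asks which transcripts of the kidney still differ between the ends of the night and of the day when the tubule has no BMAL1.

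Between 17791420 and 19691384 reads per cKOt mouse were counted on genes, and 15546 genes were retained. Levels are given as counts per 1000000 counts of a library (CPM) with TMM scaling, without further correction, and fold changes are log2 values from edgeR's quasi-likelihood fit of all 60 kidneys with 2 RUVs factors, with p values adjusted over all retained genes by the method of Benjamini and Hochberg. A log2 fold change above 0 means a higher level at ZT12. Of the cKOt mice at ZT12, mice 1 and 5 stood apart on the first principal component of the 10 libraries, at 41.5 and 31.0 against -3.24 to 8.77 in the other mice of the group and -21.1 to -10.4 at ZT0. Of uniquely aligned reads, 10.2% and 10.5% fell on no gene in mice 1 and 5, against 7.80% to 9.76% in the other libraries. The part of library quality in their distance was not tested. Mouse 3 at ZT12 stood apart in fatty acid transcripts. Over all retained genes, its mean correlation was lower with the other ZT12 mice (0.98251) than with the ZT0 mice (0.98405). No other library of the 10 was closer to the other time point. Results that rest on mice 1, 3, and 5 at ZT12 are given without them as well. In RNA from whole tissue, fewer cells of a type and less RNA per cell cannot be told apart.

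Bmal1, the gene that was deleted, has the symbol Arntl here (ENSMUSG00000055116, chromosome 7 from 113207465 to 113314126, plus strand, GRCm38). Its level in cKOt mice was 23.5, 25.2, 22.8, 26.8, and 23.9 CPM at ZT0 and 20.1, 17.5, 14.7, 16.5, and 18.2 CPM at ZT12. Each mouse at ZT12 lay below each mouse at ZT0, a separation that 7.38% of all transcripts showed in one direction or the other, but the difference did not pass the test (log2 fold change -0.54 ± 0.21 (SE), adjusted p = 0.080). In control mice the level fell from 48.4 ± 10.2 to 2.77 ± 1.54 CPM (SD, n = 5), and the genotypes differed in the change by 3.63 ± 0.32 on the log2 scale (adjusted p = 1.0e-11). Transcripts that lack the deleted exon are counted too, since counts cover the gene as a whole.

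Between dawn and dusk, 1749 transcripts changed in cKOt mice, which is 11.3% of those tested. Of these, 798 were higher at ZT12 (5.13% of the tested) and 951 were lower (6.12%). Without mice 1 and 5 at ZT12 there were 1001, of which 561 were higher and 440 lower. A fit of only the 10 cKOt mice at these times, without RUVs factors, called 782, with 449 higher. With the batch in place of the RUVs factors 1395 were called, and 1109 of them are among the 1749. Most changes were small, with a median size of 0.31 on the log2 scale among those called, and 303 transcripts changed by at least 1.5-fold (1.95% of the tested, with 178 or 1.14% higher and 125 or 0.804% lower) and 104 by at least 2-fold (65 higher and 39 lower). Leading the increases were the clock genes Dbp, Nr1d1, Nr1d2, Per1, and Per3, together with Irs2 and Zbtb16, while the decreases were led by chaperones of the endoplasmic reticulum (ER) and by Banp, Ddit3, and Acmsd.

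Promoters of genes from both groups are shown here, since several members of each moved in one direction. Sequences are from RefSeq on GRCm38.p6, from 250 bases before to 50 bases after the start of the transcript, and capitals mark the motif named. The promoter of Hspa5, which encodes the ER chaperone BiP, holds an ER stress response element (CCAAT, any 9 bases, and CCACG) that begins 65 bases before the start (chr2:34771840-34772139, plus strand).
Hspa5: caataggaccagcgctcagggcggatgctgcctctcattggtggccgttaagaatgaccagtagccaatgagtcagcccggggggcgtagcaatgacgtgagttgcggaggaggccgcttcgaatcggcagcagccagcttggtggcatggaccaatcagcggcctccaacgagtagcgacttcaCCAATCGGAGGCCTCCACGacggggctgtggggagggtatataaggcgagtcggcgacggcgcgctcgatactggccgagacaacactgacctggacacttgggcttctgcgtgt
The promoter of Per1, a repressor of the clock, holds an E-box (CACGTG) that begins 166 bases before the start (chr11:69098699-69098998, plus strand).
Per1: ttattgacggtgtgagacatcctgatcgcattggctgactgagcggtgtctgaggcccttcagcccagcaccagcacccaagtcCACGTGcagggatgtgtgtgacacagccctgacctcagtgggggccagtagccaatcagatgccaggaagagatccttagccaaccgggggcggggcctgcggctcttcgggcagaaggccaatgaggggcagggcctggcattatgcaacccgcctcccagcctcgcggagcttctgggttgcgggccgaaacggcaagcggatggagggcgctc
In the promoter of Per3, 2 matches to the D-box (TTATGTAA), the site bound by DBP, TEF, HLF, and NFIL3, were found (chr4:151044616-151044915, minus strand).
Per3: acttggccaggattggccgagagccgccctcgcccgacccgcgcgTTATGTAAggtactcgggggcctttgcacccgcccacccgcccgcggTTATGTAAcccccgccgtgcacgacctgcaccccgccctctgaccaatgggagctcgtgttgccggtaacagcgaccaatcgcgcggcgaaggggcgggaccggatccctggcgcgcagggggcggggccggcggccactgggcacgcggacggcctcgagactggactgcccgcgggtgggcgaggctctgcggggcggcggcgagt

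All motifs were searched on both strands. The ER stress response element was found in 9 of the 22 members of the ER folding list that have a promoter in the table, against 37 of all 27025 genes of the table (0.137%). Of the 9, Ero1b was not analysed here and the other 8 fell at ZT12, and 8 of the 14 called members with a promoter hold the motif. Each site is printed in the direction of the motif with up to 8 bases on either side.
Hspa5 (chr2:34772017-34772051, plus strand): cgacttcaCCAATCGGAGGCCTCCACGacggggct
Hsp90b1, site A (chr10:86705630-86705664, minus strand): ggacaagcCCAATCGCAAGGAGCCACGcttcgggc
Hsp90b1, site B (chr10:86705525-86705559, plus strand): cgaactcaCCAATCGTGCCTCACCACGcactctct
Pdia6 (chr12:17266483-17266517, plus strand): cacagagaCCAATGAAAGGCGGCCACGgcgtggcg
Calr (chr8:84847067-84847101, plus strand): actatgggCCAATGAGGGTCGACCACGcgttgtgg
Canx (chr11:50325792-50325826, minus strand): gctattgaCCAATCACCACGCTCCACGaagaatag
Creld2 (chr15:88819512-88819546, minus strand): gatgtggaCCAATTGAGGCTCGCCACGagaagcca
Dnajc3 (chr14:118937819-118937853, plus strand): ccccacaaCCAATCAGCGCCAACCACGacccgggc
Syvn1 (chr19:6046524-6046558, plus strand): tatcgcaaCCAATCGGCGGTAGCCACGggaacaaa
Ero1b (chr13:12565674-12565708, minus strand): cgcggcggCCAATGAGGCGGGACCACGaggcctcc
A heat shock element (GAA, any 2 bases, TTC, any 2 bases, and GAA) was found in 4 of 16 heat shock chaperones with a promoter, against 0.662% of the table, and all 4 fell at ZT12. Of the 16, 13 were called lower, with or without the element. The sites of Hspd1 and Hspe1 are the same bases, because these genes are transcribed away from each other from a shared region.
Hspe1 (chr1:55088056-55088084, plus strand): ccgttctaGAACCTTCCGGAAggccccgc
Chordc1 (chr9:18292255-18292283, plus strand): tgcaaccgGAACGTTCGGGAAaattcctg
An E-box was found in 4 of 8 clock repressors (Per1, Cry1, Bhlhe41, and Ciart) and in 1 of the 4 output factors (Tef), against 8.09% of the table, and the D-box in 1 of 8 clock repressors (Per3), against 1.11%. Of the 4 repressors with an E-box, 2 were called (Per1 and Ciart), and of the 8 with a promoter, 6 were called. A glucocorticoid response element (G, any base, ACA, any 3 bases, TGT, any base, and C) was found in 2 of 15 glucocorticoid responsive genes (Sgk1 and Mt1), neither of them called, against 0.537%, and a cyclic AMP response element (TGACGTCA) in 1 of 13 immediate early genes (Btg2), against 2.03%. E-box and cyclic AMP response element read the same on both strands. A match is a run of letters and no measure of binding.

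Of the 10 clock repressors, 6 were higher at ZT12 in cKOt mice, where 5.13% of all transcripts were called higher. The median log2 fold change was 1.01 over the list against -0.01 over all genes. In control mice, where 10.1% of all transcripts were called higher and 9.48% lower, 8 were higher, with a median of 1.37. Dbp (ENSMUSG00000059824, chromosome 7 from 45705088 to 45710203), an output factor, had the largest increase. It was at 3.15, 2.67, 1.82, 1.99, and 2.86 CPM at ZT0 and at 12.5, 12.7, 17.0, 14.6, and 11.9 CPM at ZT12 in cKOt mice. The ranges were far apart, with an increase of 2.61 ± 0.23 on the log2 scale (adjusted p = 1.5e-11). Control mice had a similar level at dawn (2.82 ± 1.54 CPM, SD, n = 5) and reached 49.6 ± 12.3 CPM (SD, n = 5), so the increase in cKOt mice was smaller by 1.67 ± 0.34 on the log2 scale (adjusted p = 0.0012).

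The REV-ERB receptors bind heme and repress transcription. Nr1d1 (ENSMUSG00000020889, chromosome 11 from 98767932 to 98775333) was at 4.56, 2.67, 2.79, 1.99, and 3.83 CPM at ZT0 and at 9.18, 16.3, 12.4, 11.4, and 11.5 CPM at ZT12. Its increase of 2.10 ± 0.27 (log2, adjusted p = 4.8e-07) was larger than the 0.60 ± 0.21 of control mice, with a difference of 1.49 ± 0.34 (adjusted p = 0.0056). The genotypes lay further apart at dawn, where control mice had 16.6 ± 4.48 CPM (SD, n = 5) against 3.17 ± 1.02 CPM (SD, n = 5), while at dusk they had 23.6 ± 8.23 against 12.1 ± 2.59 CPM (SD, n = 5). Nr1d2 was at 12.9, 22.4, 16.2, 17.0, and 14.3 CPM at ZT0 and at 65.3, 61.8, 59.2, 51.4, and 79.3 CPM at ZT12. Its log2 fold change of 1.83 ± 0.15 (adjusted p = 1.1e-12) was close to that of 1.92 ± 0.14 in control mice, on a level that was lower at both times than in control mice (68.3 and 264.3 CPM), and the genotype difference did not pass the test (-0.09 ± 0.20, adjusted p = 0.90).

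**Figure D1:**
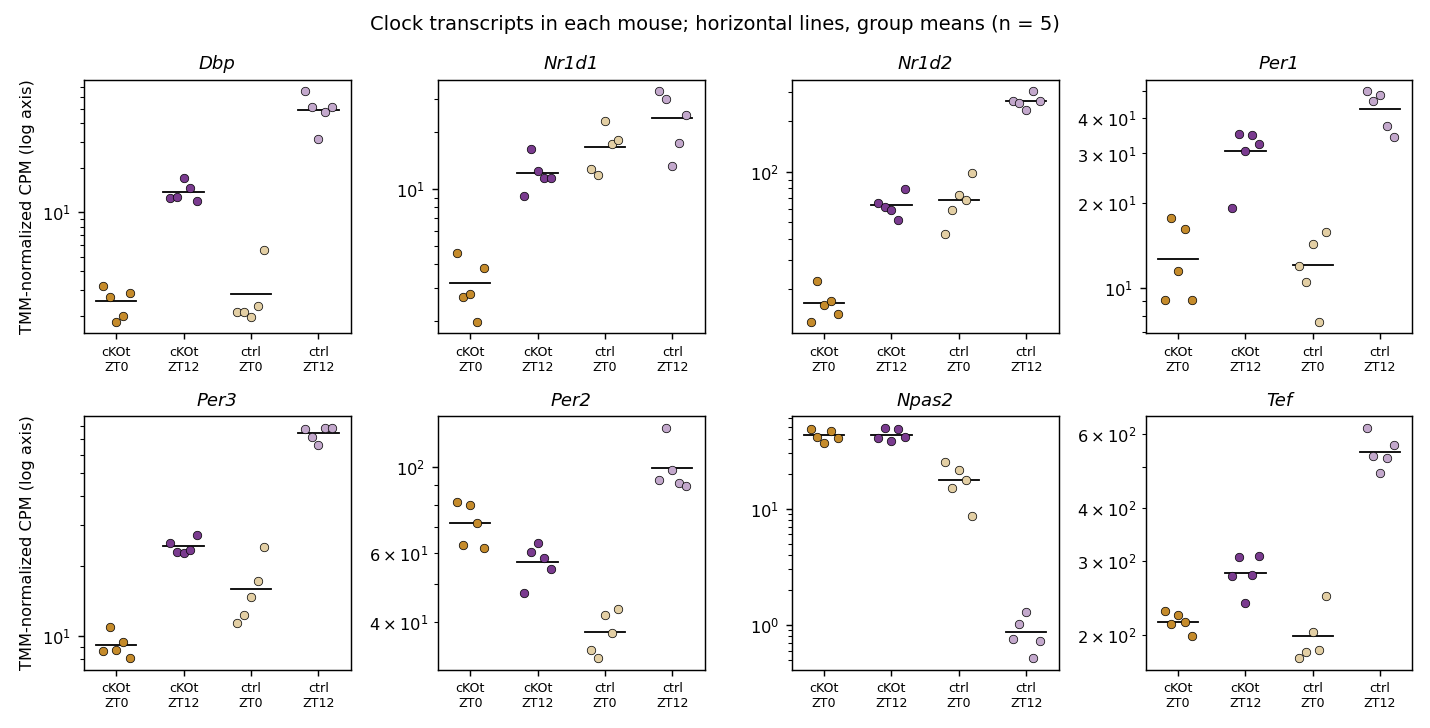
TMM-normalized CPM (log axis) of 8 clock transcripts in each of 5 mice per group, with lines at group means, for cKOt and control (ctrl) mice at ZT0 and ZT12. Dbp, Nr1d1, Nr1d2, Per1, and Per3 of cKOt mice do not overlap between the times, Per2 of cKOt mice lies between 47.5 and 81.3 CPM at both, and Npas2 of cKOt mice stays between 36.3 and 49.4 CPM while that of control mice falls to about 1 CPM.

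The period genes did not move together. Per1 was at 9.12, 17.7, 11.5, 16.2, and 9.07 CPM at ZT0 and at 19.3, 35.2, 30.5, 35.0, and 32.5 CPM at ZT12, with mouse 1 lowest at ZT12 and no overlap. Per3 was at 8.63, 10.9, 8.73, 9.41, and 8.04 CPM at ZT0 and at 25.0, 22.9, 22.7, 23.5, and 27.2 CPM at ZT12. Both rose, Per1 by 1.46 ± 0.23 (adjusted p = 1.3e-05) and Per3 by 1.41 ± 0.17 (adjusted p = 6.3e-08) on the log2 scale. In control mice, Per1 rose by 1.96 ± 0.22 and Per3 by 2.23 ± 0.15, and the genotypes differed for Per3 (-0.82 ± 0.22, adjusted p = 0.025). Per2 was at 71.7 ± 9.05 CPM at ZT0 and 56.9 ± 6.21 CPM at ZT12 (SD, n = 5) in cKOt mice, and its log2 fold change, -0.27 ± 0.16, did not pass the test (adjusted p = 0.28). In control mice it rose by 1.42 ± 0.16, and the difference was -1.69 ± 0.22 (adjusted p = 3.0e-07).

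Ciart, which encodes the repressor CHRONO, rose from 0.37 to 1.30 CPM at ZT0 to 2.502 to 2.91 CPM at ZT12 (log2 fold change 1.97 ± 0.40, adjusted p = 6.9e-04). Cry2 rose by 0.38 ± 0.06 (adjusted p = 6.1e-05) and the output factor Tef by 0.40 ± 0.09 (adjusted p = 0.0025), against 1.32 ± 0.07 and 1.45 ± 0.09 in control mice. The values of the members that did not pass the test were -0.14 ± 0.10 for Cry1, -0.31 ± 0.15 for Bhlhe40, and 0.60 ± 0.24 for Bhlhe41 among the repressors, and 0.12 ± 0.08 for Hlf and 0.00 ± 0.29 for Nfil3, a repressor of D-box genes. Among the 5 activators, Clock fell by 0.36 ± 0.10 (adjusted p = 0.0087) and the receptor Rora rose by 0.33 ± 0.11 (adjusted p = 0.039), the latter not passing in 8 of 23 alternative analyses, among them that without mice 1 and 5 at ZT12. Npas2, the partner that can stand in for CLOCK, was at 0.10 ± 0.19. For Npas2 the mice ranged from 36.3 to 48.6 CPM at ZT0 and from 38.3 to 49.4 CPM at ZT12, whereas control mice fell from 17.6 ± 6.32 to 0.863 ± 0.299 CPM (SD, n = 5), a genotype difference of 4.41 ± 0.38 on the log2 scale (adjusted p = 8.9e-12).

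Chaperones of the ER lumen fold secreted and membrane proteins, and their genes are induced together in the unfolded protein response. In the list of 26 such genes, 24 were retained. All 24 had a log2 fold change below 0 at dusk in cKOt mice, and 16 passed the test, beside 6.12% of all transcripts called lower. The median was -0.42 over the list. In control mice 15 were lower and 1 was higher, beside 9.48% and 10.1% of all transcripts. The median was -0.37 in control mice, and the genotype difference was called for 1 member, Herpud1. Without mice 1 and 5 at ZT12, 15 members were lower. The summed level of the 24 genes was 4088 to 5557 CPM in the mice at ZT0 and 3287 to 3681 CPM at ZT12, so the groups did not overlap.

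Hspa5 (ENSMUSG00000026864, chromosome 2 from 34771970 to 34777547) was at 657.6, 515.4, 905.8, 515.3, and 649.7 CPM at ZT0 and at 343.5, 334.0, 361.4, 309.5, and 332.0 CPM at ZT12. The mice at dawn spread widely, with mouse 3 highest, and those at dusk lay within 309.5 to 361.4 CPM. The log2 fold change was -0.98 ± 0.15 (adjusted p = 7.2e-06) in cKOt and -0.99 ± 0.15 in control mice, a difference of 0.01 ± 0.20. Manf, a secreted ER stress factor, was at 47.9, 42.9, 69.0, 35.7, and 56.1 CPM at ZT0 and at 25.3, 27.1, 30.9, 27.97, and 26.3 CPM at ZT12 (-0.91 ± 0.16, adjusted p = 1.0e-04). Sdf2l1, a partner of BiP, was the most changed member, from 7.76, 5.72, 8.84, 6.404, and 7.34 CPM to 2.60, 1.98, 2.38, 1.54, and 1.32 CPM (-1.81 ± 0.26, adjusted p = 2.7e-06). Mouse 3 was also the highest at ZT0 for Manf and Sdf2l1.

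The other chaperones and their helpers followed in smaller steps. Hyou1 fell by 0.78 ± 0.13, the lectin chaperone Calr by 0.73 ± 0.10, Hsp90b1 (GRP94) by 0.71 ± 0.11, the disulfide isomerase Pdia6 by 0.57 ± 0.08, and the ubiquitin ligase Syvn1 by 0.60 ± 0.09 on the log2 scale, all with adjusted p below that of Manf. Creld2 fell by 0.88 ± 0.19 (adjusted p = 0.0010). Ddit3, which encodes the stress factor CHOP, fell from 9.55, 11.0, 16.6, 11.3, and 10.7 CPM to 4.59, 4.38, 5.81, 4.94, and 3.81 CPM (-1.23 ± 0.24, adjusted p = 3.9e-04), against -0.34 ± 0.22 in control mice, and the genotype difference did not pass the test (-0.88 ± 0.32, adjusted p = 0.15). The regulators themselves did not pass the test, with -0.19 for Xbp1, -0.20 for Atf4, and -0.05 for Atf6.

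**Figure D2:**
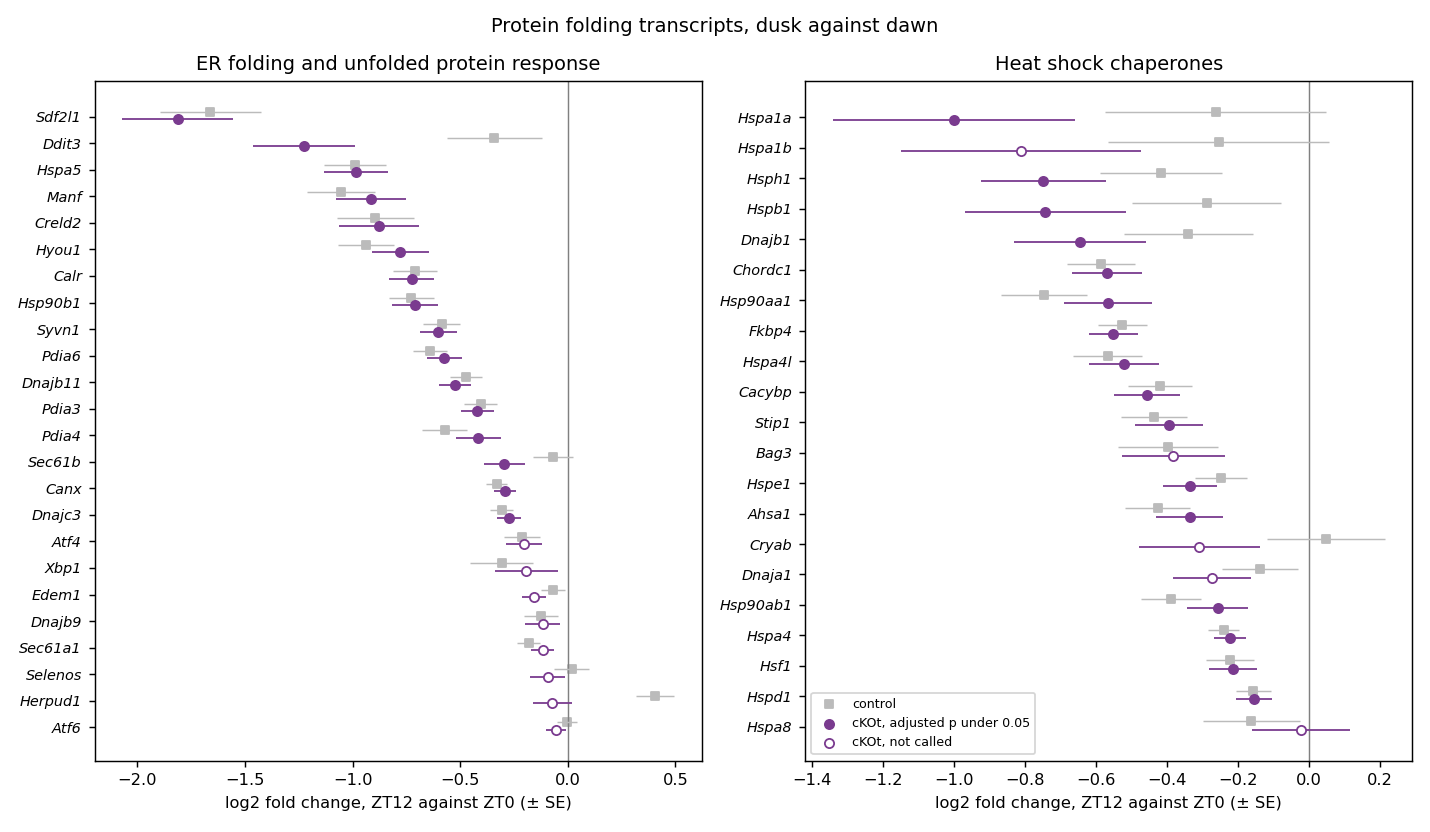
Log2 fold change of ZT12 against ZT0 with its SE for the 24 ER folding genes (left) and 21 heat shock chaperones (right), in cKOt (purple, filled where adjusted p is under 0.05) and control mice (grey squares). Every cKOt point lies below 0, and 16 are filled in each panel.

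Heat shock chaperones of the cytosol and mitochondria were lower at dusk as well. Of 21 members, 16 were lower in cKOt mice, with a median of -0.39, and 13 were lower in control mice, with a median of -0.34. Among all transcripts, 6.12% were called lower in cKOt mice and 9.48% in control mice. The number of members lower in cKOt mice fell to 8 without mice 1 and 5 at ZT12, at a median of -0.35. Hsph1 (HSP110) was at 201.1, 195.5, 259.4, 158.1, and 174.1 CPM at ZT0 and at 135.8, 111.9, 168.3, 101.4, and 103.4 CPM at ZT12 (-0.75 ± 0.18, adjusted p = 0.0029). These ranges overlapped through mouse 3 at ZT12. The co-chaperone Fkbp4, which serves steroid receptors, fell from 208.6 ± 8.82 to 131.7 ± 21.3 CPM (SD, n = 5; -0.55 ± 0.07, adjusted p = 3.4e-07) without overlap, and Chordc1 fell by 0.57 ± 0.10 and Hsp90aa1 by 0.57 ± 0.12. The constitutive Hspa8 was at -0.02 ± 0.14. Hspa1a was called at -0.9999 ± 0.34 (adjusted p = 0.046) but not in 14 of 23 alternatives. Reads that also match the near-identical Hspa1b (-0.81 ± 0.34, adjusted p = 0.11) may be left uncounted. Dnajb1 and Hspb1 were called at -0.65 ± 0.19 and -0.74 ± 0.23, and neither was without mice 1 and 5.

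The cold-inducible RNA-binding proteins, which rise as body temperature falls, went the other way, and all 3 of the list rose, beside 5.13% of all transcripts. Cirbp was at 17.0, 22.5, 15.0, 26.1, and 17.2 CPM at ZT0 and at 24.4, 31.1, 26.6, 34.9, and 25.2 CPM at ZT12 (0.75 ± 0.16, adjusted p = 0.0011), and mouse 4 at ZT0 overlapped the ZT12 mice. Rbm3 rose by 0.39 ± 0.11 and the splicing factor Srsf5 by 0.31 ± 0.06, both without overlap. The values in control mice were 0.73, 0.30, and 0.21, and the genotype difference was not called for these 3.

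Zbtb16, a transcription factor that glucocorticoids induce, was at 5.05, 5.45, 4.77, 9.17, and 6.86 CPM at ZT0 and at 18.9, 25.8, 21.8, 19.4, and 17.7 CPM at ZT12 in cKOt mice (1.92 ± 0.35, adjusted p = 1.9e-04). Of the 19 glucocorticoid responsive genes, 4 were higher in cKOt mice (Zbtb16, Per1, Cebpd, and Klf9), with a median of 0.26. In control mice 10 were higher and 1 lower, with a median of 0.38. Among all transcripts, 5.13% were called higher in cKOt mice, and 10.1% higher and 9.48% lower in control mice. Klf9 rose by 0.45 ± 0.11 (adjusted p = 0.0027), with mouse 3 at ZT12 (183.7 CPM) within the ZT0 range. Tsc22d3 (GILZ), a classic target of the hormone, was at 77.4 ± 6.95 and 82.4 ± 11.1 CPM in cKOt mice (SD, n = 5; log2 fold change 0.08 ± 0.14) but rose by 1.00 in control mice, and the genotypes differed (-0.92, adjusted p = 0.0016). Fkbp5 was at 0.33 in cKOt and 0.60 in control mice. The genotype difference was called for Tsc22d3 and Cdkn1a only among the 19.

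Irs2 encodes the insulin receptor substrate that couples the insulin receptor to its kinases. It was at 9.5, 11.4, 7.82, 10.2, and 10.5 CPM at ZT0 and at 60.1, 62.0, 12.9, 76.2, and 12.3 CPM at ZT12 (2.24 ± 0.50, adjusted p = 0.0018). The 5 mice at dusk thus fell into 3 with high and 2 with low levels, mice 3 and 5, and even the low ones were above each mouse at dawn. Mylip, a ubiquitin ligase, rose by 1.04 ± 0.19 (adjusted p = 1.2e-04) from 18.6 ± 3.55 to 40.2 ± 14.1 CPM (SD, n = 5). Other large increases were those of Zc3h6 (1.22 ± 0.24), the zinc finger factor Ikzf4 (1.11 ± 0.20), Rgcc (1.06 ± 0.17), and Coro2a (1.03 ± 0.24). The rule that named the increases of this paragraph took only transcripts without overlap, so the lack of overlap is not a result.

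Among the decreases outside the folding genes, Banp, a DNA-binding nuclear protein, was at 22.3, 16.9, 21.9, 22.5, and 16.4 CPM at ZT0 and at 7.74, 8.29, 10.3, 8.07, and 5.87 CPM at ZT12 (-1.27 ± 0.22, adjusted p = 9.3e-05). Acmsd, the enzyme that directs tryptophan breakdown away from NAD synthesis, was at 238.0, 161.4, 170.1, 176.7, and 247.7 CPM at ZT0 and at 79.2, 79.0, 115.8, 75.3, and 102.6 CPM at ZT12 (-1.16 ± 0.15, adjusted p = 4.8e-07). Both had nearly the same change in control mice, -1.23 ± 0.22 for Banp and -1.20 ± 0.15 for Acmsd, and the genotype differences were -0.04 ± 0.31 and 0.04 ± 0.21. The heme oxygenase Hmox1 fell by 0.90 ± 0.20, Pcdh12 by 0.93 ± 0.12, Tril by 0.93 ± 0.16, Osgin1 by 0.84 ± 0.19, and G0s2, an inhibitor of fat breakdown, by 0.85 ± 0.22. Of these, Osgin1 was not called without mice 1 and 5 at ZT12 (adjusted p = 0.053). G0s2 was at 0.04 ± 0.21 in control mice, and the difference of -0.89 ± 0.30 did not pass the test (adjusted p = 0.12).

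PPAR alpha is a receptor for fatty acids that induces the genes of their oxidation in fasting. Of the 26 genes of fatty acid oxidation and PPAR alpha targets, 9 were higher at dusk in cKOt mice, with a median of 0.29. In control mice 4 were higher and 5 lower, with a median of -0.09. The shares over all transcripts were 5.13% higher in cKOt mice, and 10.1% higher and 9.48% lower in control mice. The genotype difference was called for Ehhadh, Pdk4, Cyp4a10, Cyp4a14, Acot1, and Acot2. The number of members higher in cKOt mice depended on single mice, with 2 higher without mouse 3 at ZT12 and 13 higher without mice 1 and 5. The 2 called without mouse 3 were Cpt1a and Slc27a2. Cpt1a, which admits fatty acids to mitochondria, was at 424.6, 406.0, 407.6, 423.6, and 352.9 CPM at ZT0 and at 454.0, 546.5, 607.2, 510.7, and 576.3 CPM at ZT12 (0.45 ± 0.07, adjusted p = 1.8e-05), and Slc27a2, an acyl-CoA synthetase and transporter, rose from 2791 ± 301 to 3802 ± 183 CPM (SD, n = 5; 0.42 ± 0.06, adjusted p = 2.0e-06).

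Cyp4a14, a fatty acid hydroxylase, was at 37.2, 26.4, 35.3, 26.5, and 35.2 CPM at ZT0 and at 32.3, 32.1, 614.3, 30.3, and 27.9 CPM at ZT12 in cKOt mice. Mouse 3 held the highest value by far, and the other 4 mice were within the range of dawn. The log2 fold change went from 1.54 ± 0.65 (adjusted p = 0.11) to -0.22 without mouse 3, and the difference from control mice went from 3.82 (adjusted p = 0.015) to 2.30 (adjusted p = 0.14). The same mouse had 691.5 CPM of the related Cyp4a10, against 151.9 to 207.9 CPM in the other 4, and the genotype difference of that transcript went from 1.57 (adjusted p = 0.010) to 1.05 (adjusted p = 0.077) without it. Mouse 3 was also highest at ZT12 for the carnitine carrier Slc25a20 (72.0 against 33.8 to 39.2 CPM), Vnn1, Fabp1, and Ehhadh, none of which was called without it. The Cyp4a genes are related, and reads that align to more than 1 of them may be left uncounted.

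**Figure D3:**
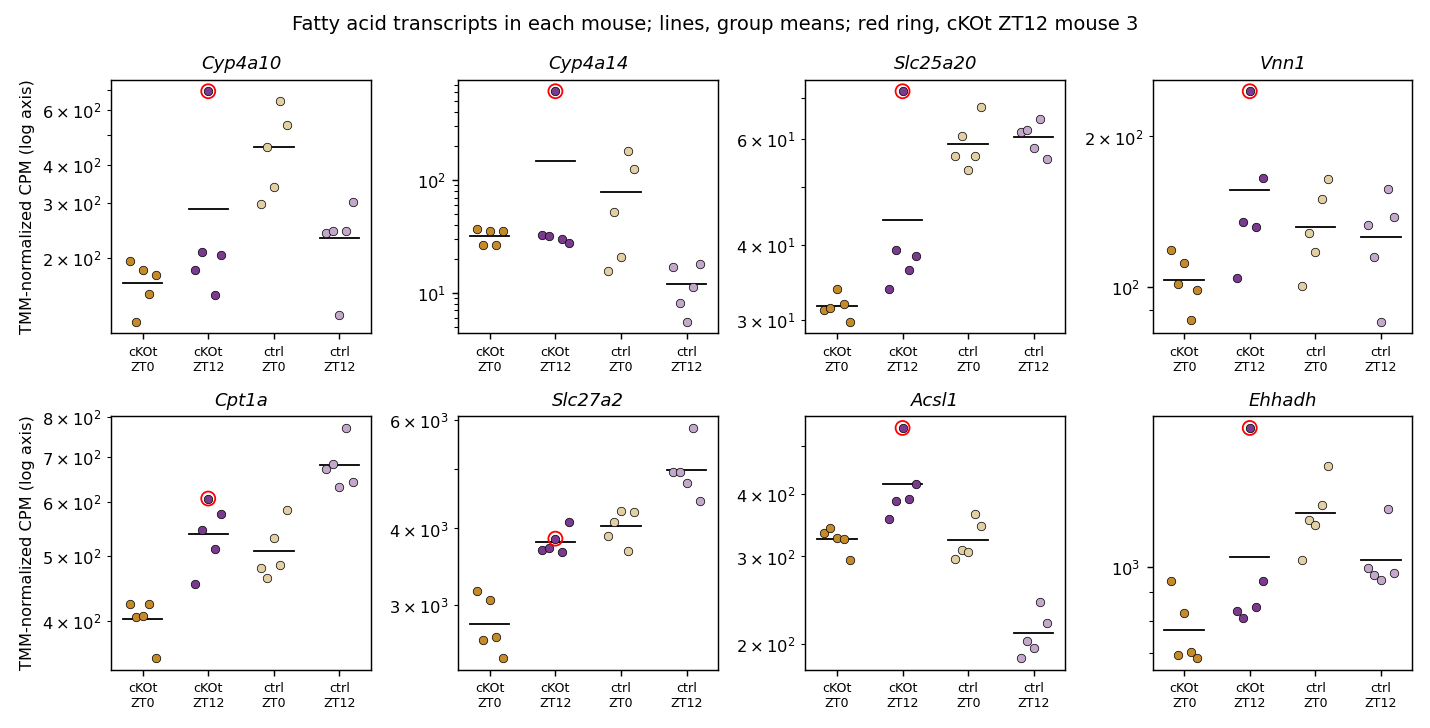
TMM-normalized CPM (log axis) of 8 fatty acid transcripts in each of 5 mice per group, with lines at group means and a red ring around cKOt mouse 3 at ZT12. The ringed mouse is the highest of its group in 7 panels, with 614.3 CPM of Cyp4a14, and lies among the others for Slc27a2.

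Genes of cholesterol and fatty acid synthesis were lower at dusk, with 8 of 27 lower in cKOt mice (median -0.29) and 19 lower and 1 higher in control mice (median -0.46). Called lower among all transcripts were 6.12% in cKOt mice and 9.48% in control mice, where 10.1% were called higher. The genotype difference was called for Insig1, Srebf1, and Scd2. The sterol oxidase Msmo1 fell by 0.65 ± 0.14, Lss by 0.42 ± 0.09, and Mvd by 0.35 ± 0.08, and the regulator Srebf2 fell by 0.31 (adjusted p = 3.6e-04).

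Of 14 autophagy genes, 7 were higher and 1 lower at dusk in cKOt mice (median 0.21), the same counts as in control mice (median 0.16). Over all transcripts, 5.13% were called higher and 6.12% lower in cKOt mice, and 10.1% and 9.48% in control mice. The transcription factor Foxo3 rose by 0.51 ± 0.08 (adjusted p = 2.3e-05), Wipi1 by 0.42 ± 0.08, Gabarapl1 by 0.33 ± 0.07, and the kinase Ulk1 by 0.30 ± 0.07. The member that fell was Tfeb, a driver of lysosome genes, from 9.59 to 12.1 CPM at ZT0 to 3.82 to 8.17 CPM at ZT12 (-0.46 ± 0.10, adjusted p = 0.0018), whereas control mice were at 0.04 ± 0.10 and the genotypes differed (-0.50 ± 0.14, adjusted p = 0.035). That difference did not pass without mice 1 and 5 (adjusted p = 0.15).

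In the list of extracellular matrix and collagen folding, 6 of 18 were lower in cKOt mice (median -0.28) and 8 in control mice (median -0.40). The shares of all transcripts called lower were 6.12% and 9.48% in turn. The members that fell most were the cross-linking enzyme Lox (-0.68 ± 0.17), the collagen chaperone Serpinh1 (-0.58 ± 0.11), the proline hydroxylase P4ha1 (-0.47 ± 0.10), and the basement membrane chains Col4a1 (-0.43 ± 0.07) and Col4a2 (-0.29 ± 0.08, not called without mice 1 and 5). Serpinh1 was at 43.4, 46.7, 57.3, 53.4, and 47.1 CPM at ZT0 and at 22.2, 30.7, 43.0, 30.2, and 21.3 CPM at ZT12, without overlap.

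Of 22 carriers of glucose, monocarboxylates, and amino acids, 5 were higher and 2 lower in cKOt mice (7 and 4 in control mice). Among all transcripts, 11.3% were called in cKOt mice and 19.6% in control mice. Slc6a19, the main carrier of neutral amino acids in the proximal tubule, was at 283.9, 287.1, 253.5, 315.5, and 291.3 CPM at ZT0 and at 403.4, 368.1, 415.4, 400.1, and 469.8 CPM at ZT12 (0.52 ± 0.11, adjusted p = 0.0012). The lactate carrier Slc5a12 rose by 0.43 ± 0.09, the urate carrier Slc2a9 by 0.42 ± 0.09, and the cystine carrier Slc7a9 by 0.41 ± 0.08, while the glucose carrier Slc5a2 and the amino acid carrier Slc7a8 were called lower, but not without mice 1 and 5 at ZT12. Slc16a1 (MCT1) was at -0.13 ± 0.15 in cKOt mice and fell by 1.86 in control mice, a difference of 1.73 (adjusted p = 2.4e-07).

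Of 21 genes of sodium and potassium transport, 2 were higher, Nedd4l (0.27 ± 0.07, adjusted p = 0.0082) and the epithelial sodium channel subunit Scnn1a (0.26 ± 0.09, adjusted p = 0.040, not called in 14 of 23 alternatives). Aqp1, the water channel of the proximal tubule, was the member called of 9 for water and urea (-0.19 ± 0.06, adjusted p = 0.043, not called in 10 of 23). The calcium exchanger Slc8a1 (-0.50 ± 0.16) and Klotho (Kl, -0.20 ± 0.07, not called in 12 of 23) were those called of 14 for phosphate, calcium, and vitamin D. None of Scnn1a, Aqp1, Slc8a1, and Kl was called without mice 1 and 5 at ZT12. Called were 9.52%, 11.1%, and 14.3% of these lists in turn, near the 11.3% called among all transcripts.

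In the other lists the counts were 2 higher and 2 lower of 19 for NAD synthesis and use, 1 higher and 1 lower of 16 immediate early genes, 1 higher and 2 lower of 9 for polyamines, 2 higher and 1 lower of 19 for xenobiotics, and 1 higher of 79 cytoplasmic ribosomal proteins. These are 21.05%, 12.5%, 33.3%, 15.8%, and 1.27% of the lists in turn, beside 11.3% called among all transcripts. Called members were Cd38 (0.40 ± 0.11), Kmo (0.23 ± 0.06), Afmid (-0.39 ± 0.12), and Nadk (-0.19 ± 0.04) for NAD, and the polyamine enzymes Paox (0.54 ± 0.15), Amd1 (-0.41 ± 0.10), and Srm (-0.33 ± 0.10). Without mice 1 and 5 at ZT12, neither Nadk nor any of the polyamine enzymes was called. Among the genes of drug handling they were the exporter Abcb1a (0.65 ± 0.21), Cyp2d22 (0.42 ± 0.09), and the organic anion carrier Slc22a6 (-0.34 ± 0.08). No member was called by edgeR, DESeq2, or limma among 11 genes of gluconeogenesis and ammoniagenesis, 18 of the cell cycle, and 7 mitochondrial mRNAs, where 1, 2, and 1 had an unadjusted p under 0.05.

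**Figure D4:**
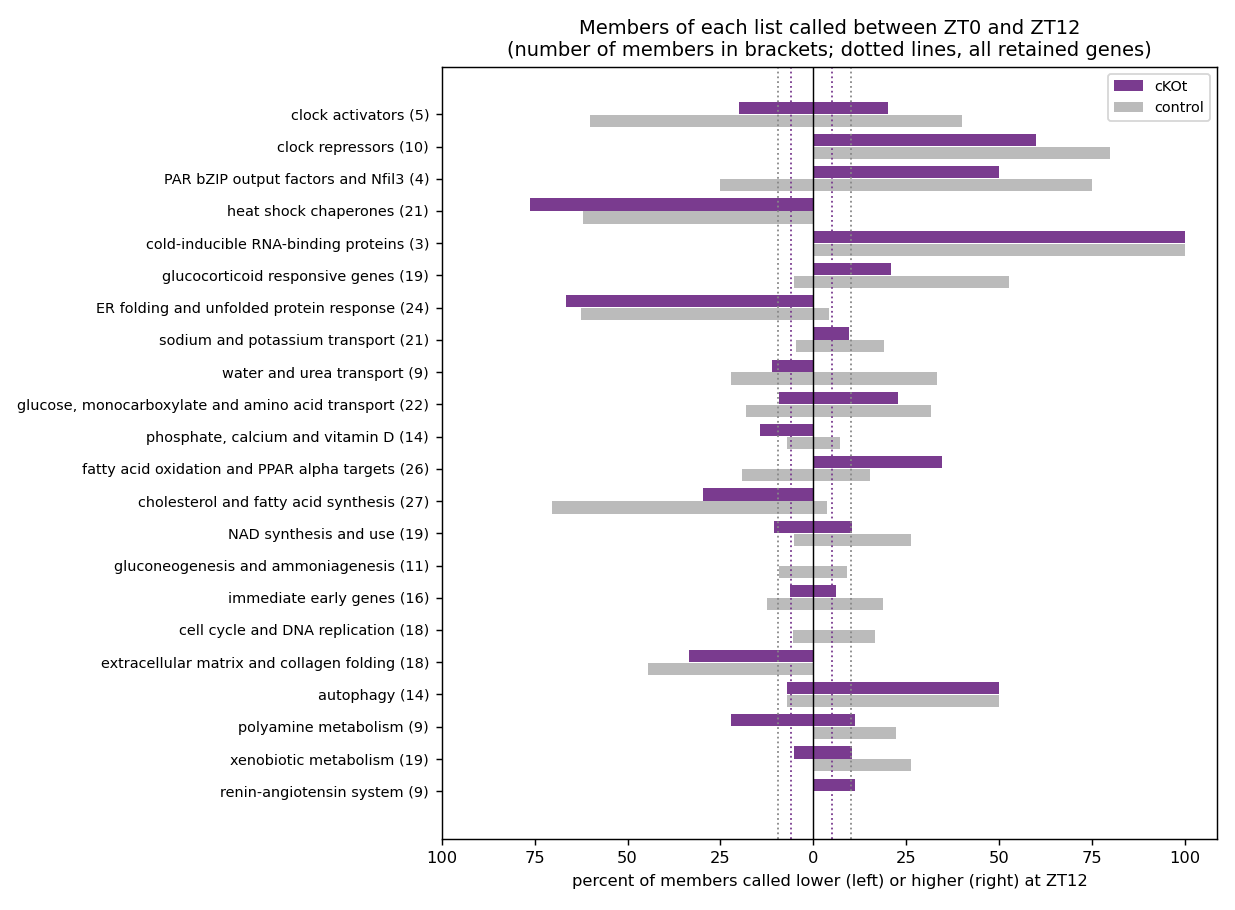
Percent of the retained members of each of 22 gene lists that were called lower (left) or higher (right) at ZT12, for cKOt (purple) and control mice (grey), with dotted lines at the percent of all retained genes. In cKOt mice the longest bars to the left are those of heat shock chaperones (16 of 21) and ER folding (16 of 24), and those to the right are of cold-inducible proteins (3 of 3), clock repressors (6 of 10), autophagy (7 of 14), and output factors (2 of 4).

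Marker transcripts of kidney cell types were present, with Lrp2 at 3266 and 3109 CPM, Umod at 2443 and 2268 CPM, and Slc12a3 at 1125 and 1106 CPM at ZT0 and ZT12. The 8 proximal tubule markers summed to 11511 to 13428 CPM at ZT0 and 9543 to 11523 CPM at ZT12, with Slc5a12 higher and Slc5a2, Aqp1, and Slc22a6 lower. Without mice 1 and 5 at ZT12, 1 of these markers was higher and 1 lower. The podocyte list summed to 309.3 to 349.3 CPM at ZT0 and 305.6 to 337.7 CPM at ZT12. Of 7 endothelial markers Ehd3 was higher (0.36, adjusted p = 0.0045), at sums of 419.4 to 448.9 and 429.6 to 461.5 CPM, and of 4 injury markers Havcr1 (KIM-1) was higher (1.22 ± 0.41, adjusted p = 0.041), at 0.922 to 1.29 CPM at ZT0 and 1.29 to 5.02 CPM at ZT12, but not without mouse 3 (adjusted p = 0.26). The 13 other marker lists with retained members held 49 genes, of which none was called by edgeR, DESeq2, or limma and 7 had an unadjusted p under 0.05. None of 3 B cell markers and 1 of 5 adrenal cortex markers (Star, at 1.30 and 1.82 CPM) was retained. The part of cell composition in the changes above was not tested.

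The control mice of the same 2 time points gave 3040 called transcripts (19.6%), and 223 of at least 2-fold. The comparisons share no mice, only the fit. In both, 877 transcripts were called in the same direction, which is 50.1% of those called in cKOt mice and 28.9% of those called in control mice, and 17 were called in opposite directions. The genotype difference of the change was called for 429 transcripts (2.76%), or 232 with the batch in place of the RUVs factors. The change was smaller in size in cKOt mice for 354 of them and larger for 75. Of the 429, 316 were called in control mice only and 57 in cKOt mice only.

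Among the named transcripts outside the clock, the changes most reduced in cKOt mice were those of Angptl7, Dtx4, and Cdkn1a. Angptl7, a secreted angiopoietin-like protein, was at 1.30 to 2.52 CPM at ZT0 and 0.566 to 1.51 CPM at ZT12 in cKOt mice and rose from 9.6 to 32.6 CPM in control mice (difference -2.30 ± 0.48, adjusted p = 0.0017). The gene lies opposite to Mtor, which is far more abundant, and whether counting used the strand is not given in the sources used here. The cell cycle inhibitor Cdkn1a was at 16.7 to 19.6 CPM at ZT0 and 15.4 to 28.7 CPM at ZT12 in cKOt mice and fell by 1.498 ± 0.26 in control mice (difference 1.85 ± 0.33, adjusted p = 1.6e-04). The ubiquitin ligase Dtx4 was at 0.06 ± 0.16 against -1.89 ± 0.18 (difference 1.95 ± 0.24, adjusted p = 1.3e-07).

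Larger in cKOt mice, besides that of Nr1d1, was the change of Fga, the fibrinogen alpha chain. It was at 104.4, 115.1, 100.1, 95.0, and 73.5 CPM at ZT0 and at 303.8, 191.3, 165.0, 219.4, and 128.8 CPM at ZT12 in cKOt mice (0.99 ± 0.22, adjusted p = 0.0020), against 24.9 and 19.3 CPM in control mice (difference 1.37 ± 0.33, adjusted p = 0.0084). The cell cycle inhibitor Cdkn1c rose by 0.79 ± 0.14 and the phosphatase Dusp9 fell by 0.61 ± 0.16, with 0.02 ± 0.13 and 0.19 ± 0.16 in control mice. Cyp4a31 rose by 0.51 ± 0.17 but was not called in 11 of 23 alternatives, and mouse 3 held its highest value (646.2 CPM).

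In opposite directions went Acsl1, Ak4, Tnfaip8, Nat8f5, Slc25a30, and Lrig2, each of which was called in both genotypes. Acsl1, which activates long-chain fatty acids, was at 334.6, 342.6, 327.4, 325.6, and 294.8 CPM at ZT0 and at 356.0, 388.3, 543.2, 391.2, and 418.6 CPM at ZT12 in cKOt mice (0.35 ± 0.09, adjusted p = 0.0092) and fell by 0.61 ± 0.09 in control mice, a difference of 0.97 ± 0.13 (adjusted p = 9.1e-07). The mitochondrial kinase Ak4 (-0.33 against 0.57) and Tnfaip8 (-0.37 against 0.62) fell in cKOt and rose in control mice. Slc25a30 (0.39 against -0.45) and Lrig2 (0.40 against -0.37) did the reverse. Without mice 1 and 5 at ZT12, the cKOt changes of Ak4, Nat8f5, and Slc25a30 were not called. For Nat8f5 (-0.74 against 0.68), the cKOt change was not called in 16 of 23 alternatives, and reads may be shared with the related Nat8f6 on the same strand.

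**Figure D5:**
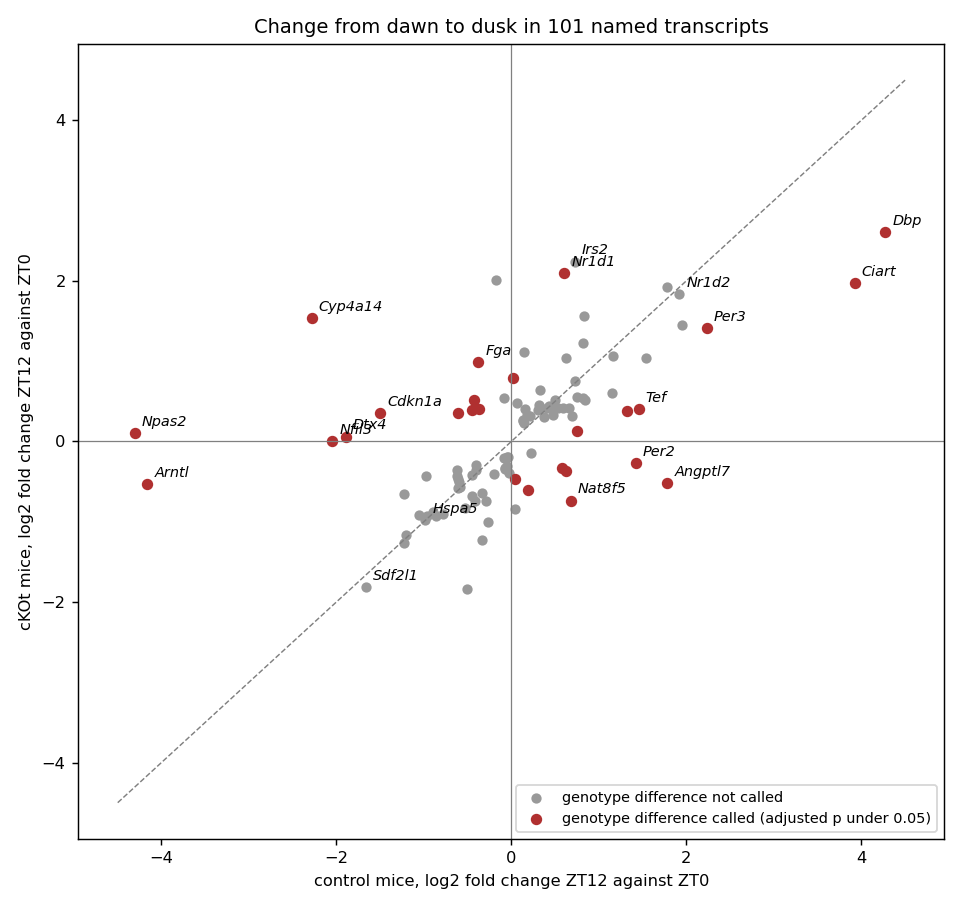
Log2 fold change of ZT12 against ZT0 in control mice (x axis) and cKOt mice (y axis) for the named transcripts, with the dashed line at equal change and red points where the genotype difference was called. Npas2 and Arntl lie far left near 0 on the y axis, Dbp and Ciart below the line at the right, Cyp4a14 at the upper left, and Hspa5 and Sdf2l1 near the line.

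The other 4 time points show where dawn and dusk lie in the daily course of cKOt mice. Hspa5 was at 649 ± 160, 418 ± 32.9, 352 ± 41.0, 336 ± 18.9, 918 ± 156, and 700 ± 74.3 CPM (SD, n = 5) at ZT0, ZT4, ZT8, ZT12, ZT16, and ZT20, so that ZT12 was the lowest mean and the highest was 4 h later. Dbp was at 2.499 ± 0.57, 4.04 ± 0.66, 14.9 ± 4.08, 13.7 ± 2.10, 3.91 ± 1.06, and 2.51 ± 0.67 CPM (SD, n = 5) at the same times. Nr1d1 had its highest mean at ZT8 (23.4 ± 5.43 CPM, SD, n = 5), and the means of Nr1d2 (63.4 CPM), Per1 (30.5 CPM), Per3 (24.3 CPM), and Irs2 (44.7 CPM) were highest at ZT12. The mean of Cirbp was highest at ZT8 (44.4 ± 8.91 CPM, SD, n = 5), so the comparison of ZT12 with ZT0 does not span its whole course.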

How the data were processed

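RNA sequencing of 60 kidneys was used, 5 mice for each of 2 genotypes at 6 time points. The deposited counts are whole reads per Ensembl gene, without normalization, and the authors made them from stranded poly(A) libraries with cutadapt (1.8), STAR (2.5.3a), and HTSeq (0.9.1) on GRCm38, per the labels. Whether counting used the strand is not given in the sources used here, and 25 of the 105 named genes overlap another retained gene, among them Nr1d1, Dbp, Manf, Ddit3, Col4a1, and Irs2. Reads of the overlap may be assigned to the other gene or left uncounted as ambiguous. The raw reads of 1 cKOt mouse (ZT12, mouse 5) were cut short at deposition, but its counts are complete. The cKOt libraries held 17791420 to 19691384 counts on genes, and low transcripts are measured with few counts. None of the 40 pairs of replicates was identical.

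Genes that reached 1 CPM in 1 or more of the 60 samples were retained, with 99.9% of the counts. In R (4.3.3), edgeR (4.0.16) was fitted with TMM library sizes, 12 groups, and 2 RUVs factors, which were computed anew on the logCPM scale (prior count 2) because the package was not installed. The quasi-likelihood F test was applied to ZT12 against ZT0 in each genotype and to the difference of these changes, two-sided, with adjustment over all retained genes and a threshold of 0.05. The SE is the size of the log2 fold change divided by the square root of F. Groups and replicate numbers are those of the labels. The p values set a change against the spread between mice within all 12 groups that remains after the 2 RUVs factors. The procedure was tested on simulated data.

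Named genes were the 12 largest increases and 12 largest decreases without overlap at a mean of at least 5 CPM, the largest genotype differences (8 smaller, 8 larger, and 6 opposite in cKOt mice), all clock and output genes, and up to 5 called members of each list, and 2 rules may name the same gene. Some genes that the rule or a list covers enter the counts but are not reported here by name. Other list members were named after their values were seen. The comparison, the 22 gene lists, and the 18 marker lists were chosen with earlier results of these data known. Promoters came from a RefSeq table of 27025 genes, matched by symbol. Alternatives were the Wald test of DESeq2 (1.42.0), its size factors, limma-trend (limma 3.58.1), no filter, filterByExpr, no or 1 RUVs factor, the batch in place of RUVs, a replicate block, other sets of samples, a fold threshold, and leaving out each mouse. Robust dispersions and leaving out both mice 1 and 5 at ZT12 were chosen after seeing the data.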

Additional observations from a re-analysis of the deposited data

Results flagged for a closer look

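Of 202 sets of 5 cKOt mice of a group, each for a named transcript, 19 held a mouse that lay apart from the other 4 by Dixon's criterion, which chance exceeds in about 1 of 20 sets. At ZT12 there were 8 such sets, and in 5 of them the mouse was mouse 3, with Cyp4a14 at 614.3 CPM, Cyp4a31 at 646.2 CPM, Slc25a20 at 71.95 CPM, Fabp1 at 5.363 CPM, and Creld2 at 21.45 CPM. Mouse 1 lay apart at ZT12 for Slc8a1 (149.0 CPM) and Tril (5.197 CPM), and mouse 2 for Rbm3 (74.34 CPM). At ZT0, mouse 5 lay apart for Cpt1a (352.9 CPM), Dtx4 (74.16 CPM), Klf9 (225.4 CPM), Rbm3 (42.86 CPM), and Slc5a12 (483.9 CPM), mouse 3 for Cd38 (13.13 CPM) and Ddit3 (16.56 CPM), mouse 2 for Egr2 (2.887 CPM) and Nedd4l (110.7 CPM), mouse 4 for Paox (5.822 CPM), and mouse 1 for Rora (60.53 CPM).

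The genotype difference of the change, cKOt minus control on the log2 scale, passed the test for 26 of the named transcripts that are reported by name. Values above 0 were found for Npas2 (4.407), Cyp4a14 (3.822), Arntl (3.626), Nfil3 (2.056), Dtx4 (1.954), Cdkn1a (1.848), Nr1d1 (1.493), Fga (1.370), Acsl1 (0.966), Cyp4a31 (0.939), Slc25a30 (0.836), Lrig2 (0.772), and Cdkn1c (0.764). Values below 0 were found for Angptl7 (-2.301), Ciart (-1.953), Per2 (-1.689), Dbp (-1.665), Nat8f5 (-1.416), Tef (-1.050), Tnfaip8 (-0.990), Cry2 (-0.944), Ak4 (-0.904), Per3 (-0.822), Dusp9 (-0.796), Hlf (-0.623), and Tfeb (-0.501).

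Among the other members of the gene lists, 21 passed the same test. Values above 0 were found for Slc16a1 (1.731), the thioesterases Acot1 (1.646) and Acot2 (0.910), Cyp4a10 (1.569), Pdk4 (1.554), Nt5e (1.161), Insig1 (0.883), Ehhadh (0.678), Srebf1 (0.645), Scd2 (0.564), and Col4a3 (0.404). Values below 0 were found for Cyp2a5 (-1.732), Tsc22d3 (-0.923), Wee1 (-0.863), Por (-0.556), Mcm4 (-0.487), Herpud1 (-0.478), Nampt (-0.392), Aqp11 (-0.379), Bnip3 (-0.342), and Atp1b1 (-0.244).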

How the results depend on the processing

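The number of transcripts called between ZT12 and ZT0 in cKOt mice (1749) ranged from 1237 to 1743 when 1 mouse was left out, and from 1323 to 1873 with DESeq2, its size factors, limma, another filter, no or 1 RUVs factor, the batch, robust dispersions, or cKOt samples alone. It moved to 1001 without both mice 1 and 5 at ZT12 (561 higher and 440 lower), to 782 in a fit of only the groups compared (449 higher and 333 lower), and to 303 with a threshold of 1.5-fold. The genotype difference (429) ranged from 302 to 459 when 1 mouse was left out and moved to 221 without RUVs factors, 232 with the batch, 179 in the fit of only the groups compared, and 183 with the fold threshold. The control count (3040) ranged from 2505 to 3109 without 1 mouse and moved to 1835 with only the groups compared. With a replicate block the 3 counts were 1662, 415, and 3021. Correlations of deviations between ZT0 and ZT12 mice of the same number ran from -0.0679 to 0.101 in cKOt mice, so the numbers do not pair the mice. Of the log2 fold changes of named transcripts over the alternatives, 2183 kept direction and call, 211 lost the call, 7 gained it, and 12 turned. Those that turned were Nfil3 (0.00), at -0.05405 with limma, -0.01493 with 1 RUVs factor, -0.04746 with the batch, and -0.1109 to 0.1258 without 1 mouse, Npas2 (0.10), at -0.0655 with the batch, Dtx4 (0.06), at -0.0292 to 0.1819 without 1 mouse, and Cyp4a14 (1.54), at -0.2232 to 1.834 without 1 mouse. None of these 4 changes was called. The cause was not tested, except that fewer mice enter where mice were left out. Without mice 1 and 5 at ZT12, the calls of Ak4, Amd1, Aqp1, Col4a2, Dnajb1, Hspa1a, Hspb1, Idi1, Kl, Nadk, Nat8f5, Osgin1, Paox, Rora, Scnn1a, Slc25a30, Slc6a20a, Slc8a1, and Srm were lost, as were 3 genotype differences, those of Ciart and Tfeb among them. Depth limits the lowest transcripts, such as Ciart, Cebpd, Fabp1, and Sdf2l1.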

Other observations

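Several enzymes outside the clock changed between dawn and dusk in control mice and not by the test in cKOt mice, and the genotype difference passed the test for each of those given here, which were chosen after their values were seen. Nt5e, the ectoenzyme that releases adenosine from AMP, was at -0.15 on the log2 scale in cKOt mice and fell by 1.31 in control mice. Nampt, which makes the precursor of NAD, was at 0.05 in cKOt mice and rose by 0.44 in control mice. Por, the electron donor of the cytochrome P450 enzymes, was at -0.10 against 0.46, and Cyp2a5, one of these enzymes, at -0.18 against 1.55. Wee1, a kinase that holds back mitosis, was at 0.29 against 1.15. Pdk4, which blocks the entry of pyruvate into oxidation, was at 0.11 against -1.44.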
